A study of Mus musculus and Homo sapiens with 30 samples.

Results

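The genes described here are 10 mouse autophagy genes: Sqstm1, Nbr1, Map1lc3b, Gabarapl1, Wipi1, Ulk1, Atg13, Atg9b, Tfeb and Tfe3. They were chosen by name for their place in the pathway, with earlier results of these data known. They are 10 of the 56980 gene IDs in the mouse count table. The human gene SQSTM1 was added as 1 of 61552 IDs in the human table. RNA was measured in 30 poly(A) libraries from 3 cell lines. E0771 is a mouse mammary tumour line, NMuMG an epithelial line from mouse mammary gland and SkBr3 a human breast cancer line. The labels give all 3 lines the cell type "Breast Cancer". Cells grew for 36 h before 16 h of treatment: the control was their usual medium, and in the other groups 50% of the medium was secretome of inguinal adipocytes, lean or obese, that is, medium conditioned by fat cells of the groin depot. Each line therefore has a control, a lean and an obese group, with 3 libraries per group in E0771 and NMuMG and 4 in SkBr3. All lines grew in DMEM with 10% FBS, and the NMuMG medium also held insulin at 10 mcg/ml and glucose at 4.5 g/L, so line and medium cannot be told apart when the mouse lines are compared. The labels name neither the species nor the diet of the fat donors, and do not say whether replicates were separate cultures or secretome batches, so p-values measure the spread between these libraries only.

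Autophagy encloses cytoplasm in a double membrane, the autophagosome, and delivers it to lysosomes for breakdown. The ULK1 kinase complex starts the process, ATG9 vesicles and WIPI proteins build the membrane, and ATG8 proteins coupled to its lipids hold cargo receptors such as p62 (the product of Sqstm1). TFEB and TFE3 are transcription factors that switch on autophagy and lysosome genes, and the antioxidant factor NRF2 is a known activator of Sqstm1. p62 is itself broken down by autophagy, so its mRNA level does not give its protein level or the rate of autophagy.

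The sequences before the start sites of Sqstm1, Wipi1 and Atg13 are shown because Sqstm1 had the largest rise of the members in E0771, Wipi1 and Atg13 went in opposite directions in the mouse lines, and Atg13 held a match to a searched motif. Each is the 250 bases before a RefSeq start site on GRCm38.p6, on the minus strand of the genome and printed along the gene, with a match to the motif TGACNNNGC, the core that NRF2 is known to bind, in capitals. The windows are at chr11:50210821-50211070 for Sqstm1, chr11:109611390-109611639 for Wipi1 and chr2:91710593-91710842 for Atg13.
Sqstm1: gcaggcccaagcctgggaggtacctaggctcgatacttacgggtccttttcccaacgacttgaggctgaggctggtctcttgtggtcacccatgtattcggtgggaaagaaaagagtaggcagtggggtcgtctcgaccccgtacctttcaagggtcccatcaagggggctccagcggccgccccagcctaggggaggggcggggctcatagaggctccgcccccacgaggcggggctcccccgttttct
Wipi1: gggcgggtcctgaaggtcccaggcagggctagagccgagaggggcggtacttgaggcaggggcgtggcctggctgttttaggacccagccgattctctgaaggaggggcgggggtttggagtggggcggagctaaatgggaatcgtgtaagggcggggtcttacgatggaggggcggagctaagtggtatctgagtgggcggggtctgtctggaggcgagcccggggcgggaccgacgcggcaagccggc
Atg13: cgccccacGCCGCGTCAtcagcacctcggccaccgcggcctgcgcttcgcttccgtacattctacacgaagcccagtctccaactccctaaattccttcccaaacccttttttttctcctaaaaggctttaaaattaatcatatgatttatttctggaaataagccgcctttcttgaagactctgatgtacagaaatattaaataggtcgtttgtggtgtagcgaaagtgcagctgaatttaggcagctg
The GC share was 63.2% in the Sqstm1 window, 67.2% in that of Wipi1 and 46.4% in that of Atg13. All 14 RefSeq promoters of the 10 members were searched on both strands, from 250 bases before to 50 after the start. TGACNNNGC was in 2 of these 14 promoters and in 12.4% of all 32851. The matches were in a promoter of Atg13 (first base at -242 from the start) and of Map1lc3b (first base at 5 after it). The 10-base CLEAR motif of TFEB was in none of the 14 and in 0.326% of all promoters, and the CACGTG at its centre was in none of the 14 and in 7.15% of all. These are matches of letters in 1 window per start site, and no binding was measured. Sequence outside the windows was not searched, so a window without a match does not show that the gene lacks a site.

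Total counts ran from 22929035 to 31094119 in E0771, from 23966897 to 29686456 in NMuMG and from 18479433 to 29195499 in SkBr3, and levels are given as CPM (counts scaled to the library's total). The line labels were set against epithelial markers: NMuMG held Krt8 at 3187 to 3926 CPM, Krt18 at 2335 to 2802 CPM and Cdh1 at 464 to 558 CPM, but Epcam at only 1.59 to 2.66 CPM and Cldn4 at 0.567 to 2.45 CPM. In E0771 Krt8 lay at 229 to 258 CPM, while Krt18, Cdh1, Epcam and Cldn4 stayed at or below 0.290 CPM in all 9 libraries. The summed level of 6 adipocyte markers was 0.740 to 1.61 CPM in E0771, with Fabp4 at 0.643 to 1.53 CPM. In NMuMG it was 0.393 to 0.728 CPM in control, 2.03 to 2.19 CPM in lean and 0.372 to 1.08 CPM in obese libraries. Cidec gave up to 2.08 CPM of this. In NMuMG Lep, Plin1 and Cfd were at 0 throughout, Adipoq at most at 0.0688 CPM and Fabp4 at most at 0.151 CPM. Immune markers summed to at most 4.06 CPM and endothelial markers to at most 5.62 CPM in any mouse library. The part of these traces in the results was not tested. E0771 lean replicate 3 stood apart from the other lean E0771 libraries, with the highest Sqstm1 and Gabarapl1 levels, and results that turn on it are given with and without it.

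Sqstm1 was the most abundant member per kb of exon, taken over all annotated exons of a gene. This is not the length of a single transcript, so the order below depends in part on the annotation. In control medium it was at 154 ± 5.81 CPM per kb of exon in E0771 and 93.5 ± 1.80 CPM per kb in NMuMG (SD, n = 3). In E0771 the control order went on with Gabarapl1 (66.8), Map1lc3b (19.5), Wipi1 (16.0), Atg13 (10.5), Ulk1 (9.86), Nbr1 (8.66), Tfe3 (6.26), Tfeb (3.42) and Atg9b (0.704 CPM per kb), and no neighbours in that order overlapped. In NMuMG it went on with Nbr1 (22.6), Gabarapl1 (22.2), Map1lc3b (14.2), Ulk1 (13.9), Wipi1 (7.87), Tfe3 (7.68), Atg13 (7.04), Atg9b (4.58) and Tfeb (3.19 CPM per kb). There Nbr1 and Gabarapl1 overlapped, as did Map1lc3b with Ulk1, Wipi1 with Tfe3 and Tfe3 with Atg13. Nbr1 was in place 2 in NMuMG and 7 in E0771, and Ulk1, Tfe3 and Atg9b each stood 1 place higher in NMuMG.

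Sqstm1 (ENSMUSG00000015837; human SQSTM1, ENSG00000161011) encodes p62, the receptor that ties ubiquitin-marked cargo to the autophagosome, and it was higher in lean than in obese secretome in all 3 lines. In SkBr3 the control libraries were at 331, 321, 335 and 318 CPM, the lean libraries at 981, 1043, 686 and 1096 CPM and the obese libraries at 469, 339.7, 363 and 467 CPM. Each lean SkBr3 library lay above each obese library, and each obese library lay above each control library, a separation met by 34.9% of all genes in lean over obese, 41.8% in lean over control and 10.9% in obese over control. Lean exceeded obese by 1.18 on the log2 scale (SE 0.153, 2.27-fold, adjusted p = 0.000201 by edgeR's quasi-likelihood test with Benjamini-Hochberg adjustment over all genes, as for every adjusted p below) and control by 1.51 (SE 0.155, 2.84-fold, adjusted p = 3e-05). Obese over control was 0.32 (95% interval -0.02 to 0.66, adjusted p = 0.402). Over all human genes tested, 44.1% passed in lean over obese (21.1% higher, 23.1% lower), 48.8% in lean over control (23.7% higher, 25.1% lower) and 1.16% in obese over control (0.605% higher, 0.551% lower), so a call in the lean contrasts is common in this line. In such cultures fewer cells of a kind and less RNA per cell cannot be told apart.

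In E0771, Sqstm1 was at 505, 509 and 541 CPM in control, 1168, 1160.0 and 1568 CPM in lean and 661, 601 and 609 CPM in obese libraries, with the 3 groups apart. Sqstm1 in lean secretome exceeded obese by 1.05 on the log2 scale (SE 0.123, 2.07-fold, adjusted p = 0.000381) and control by 1.31 (SE 0.124, 2.49-fold, adjusted p = 0.000108). Without lean replicate 3 the lean over obese difference was 0.90 (adjusted p = 1.28e-15). Obese over control was 0.26 (adjusted p = 0.387). That difference passed in a fit of the obese and control libraries alone (adjusted p = 0.000592) and without lean replicate 3 (7.24e-05), so the spread of the lean group enters the call. In NMuMG, Sqstm1 was at 312, 321 and 309 CPM in control, 431, 401 and 492 CPM in lean and 329, 313 and 318 CPM in obese libraries, with lean above both other groups, which overlapped. Sqstm1 in lean NMuMG libraries exceeded obese by 0.45 (SE 0.0603, 1.37-fold, adjusted p = 0.000158) and control by 0.49 (adjusted p = 6.45e-05).

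**Figure D1:**
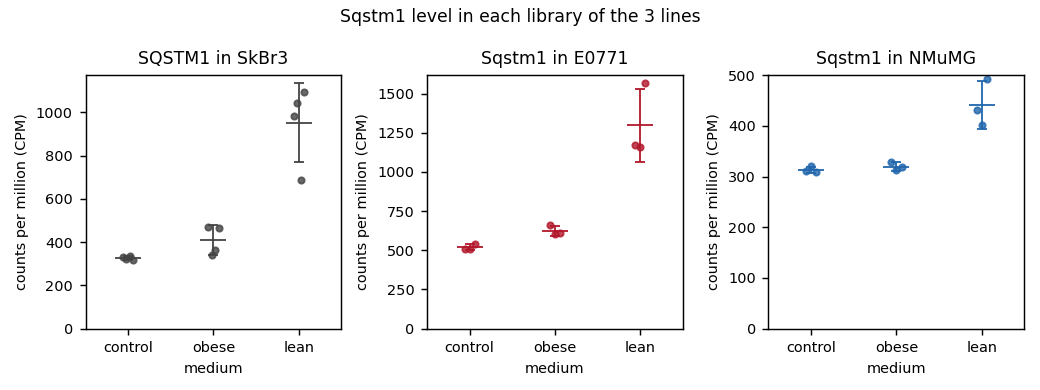
Level of SQSTM1 (SkBr3) and Sqstm1 (E0771, NMuMG) in CPM by medium; points are libraries, bars the group mean and SD. All lean libraries lie above all obese and control libraries of their line, with group means of 952 CPM in SkBr3, 1299 CPM in E0771 and 441 CPM in NMuMG.

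Of the 10 mouse members, 6 passed in E0771 and 7 in NMuMG when lean was compared with obese. In E0771, 2 members rose (Sqstm1 and Gabarapl1) and 4 fell (Wipi1, Atg13, Tfeb and Nbr1), against 52.7% of all tested genes called, 25.8% higher and 26.9% lower. In NMuMG 7 rose (Sqstm1, Map1lc3b, Gabarapl1, Wipi1, Atg9b, Atg13 and Nbr1) and none fell, against 35.0% of all genes called, 17.6% higher and 17.4% lower. The median log2 difference of the members was -0.09 in E0771 and 0.26 in NMuMG, where the median of all tested genes was 0.003 and -0.002. Lean and obese libraries did not overlap for 6 members in E0771 and 8 in NMuMG, against 60.3% and 45.2% of all genes. Against control, 4 rose and 5 fell in lean E0771 libraries (56.3% of all genes called, 27.3% higher and 29.0% lower), and 7 rose and none fell in lean NMuMG libraries (38.2%, 19.1% each way). Lean and control did not overlap for 9 members in E0771 and 7 in NMuMG, against 61.4% and 48.0% of all genes. Both lean contrasts use the same lean libraries, so they are no separate evidence.

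**Figure D2:**
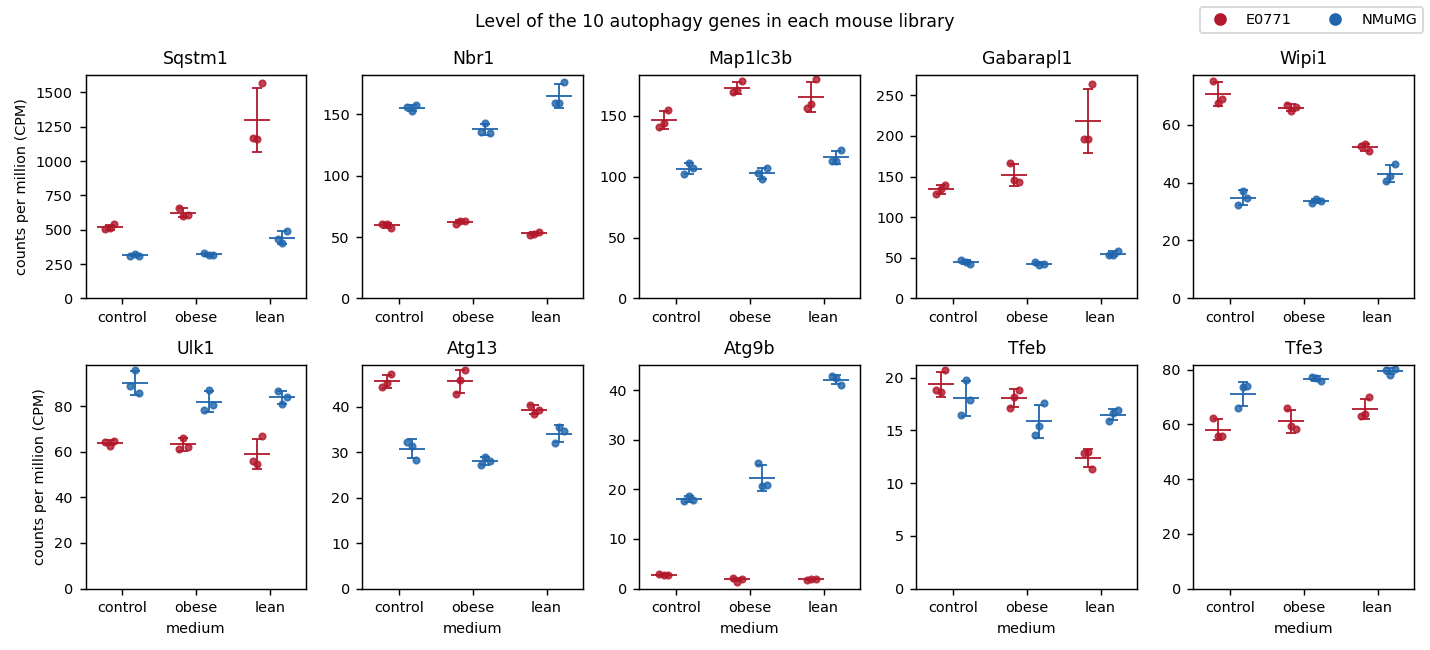
Level of the 10 mouse members in each library, in CPM on a linear axis, for E0771 and NMuMG in control, lean and obese medium. Sqstm1 is highest in the lean libraries of both lines, Tfeb is lowest in lean E0771 libraries, and Atg9b is highest in lean NMuMG libraries at 41.0 to 42.7 CPM.

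Nbr1 (ENSMUSG00000017119), like p62 a receptor for ubiquitin-marked cargo, fell in lean E0771 cells and rose in lean NMuMG cells when compared with obese. In E0771, Nbr1 was at 60.4, 60.8 and 57.3 CPM in control, 51.9, 52.4 and 54.5 CPM in lean and 60.9, 63.2 and 63.2 CPM in obese libraries. The lean libraries lay below all others, and the Nbr1 difference from obese was -0.24 on the log2 scale (SE 0.0489, adjusted p = 0.000176). In NMuMG, Nbr1 was at 156, 153 and 157 CPM in control, 159, 159.7 and 176 CPM in lean and 136, 143 and 135 CPM in obese libraries. Obese was the low group there: Nbr1 in lean exceeded obese by 0.25 (adjusted p = 3.47e-06), obese was below control by 0.16 (log2 difference -0.16, adjusted p = 0.00972), and lean over control was 0.09 (adjusted p = 0.0605). The obese over control call in NMuMG was lost without control replicate 1 (adjusted p = 0.0605) or obese replicate 3 (0.0744), and the lean over control difference passed without lean replicate 1 (0.0383) or lean replicate 2 (0.0449).

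The ATG8 proteins are coupled to lipid on the growing membrane, where receptors bind them. Map1lc3b (ENSMUSG00000031812), which encodes LC3B, was at 141, 144 and 155 CPM in control, 157, 160.0 and 179.8 CPM in lean and 169, 171 and 178 CPM in obese E0771 libraries. Map1lc3b rose in both secretomes in E0771, by 0.16 on the log2 scale in lean (adjusted p = 0.00575) and by 0.23 in obese (adjusted p = 0.00957) over control, while lean over obese was -0.07 (adjusted p = 0.239). The obese rise was the only member call in that contrast, against 2.61% of all genes, and it was lost without control replicate 1 (adjusted p = 0.0992), control replicate 2 (0.0769) or obese replicate 3 (0.0857). Without lean replicate 3, the rise over control was 0.10 (adjusted p = 0.0404), and Map1lc3b was below obese by 0.13 (log2 difference -0.13, adjusted p = 0.0128). In NMuMG, Map1lc3b was at 102, 111 and 107 CPM in control, 113, 113 and 122 CPM in lean and 103, 98.4 and 107 CPM in obese libraries. Lean was the high group, by 0.16 over obese (adjusted p = 0.00265) and 0.12 over control (adjusted p = 0.0159); the second was lost without control replicate 1 (0.144) or lean replicate 3 (0.114).

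Gabarapl1 (ENSMUSG00000030161), an ATG8 protein of the GABARAP branch, was with Sqstm1 the only member to rise in both mouse lines in lean over obese. In E0771, Gabarapl1 was at 129, 135 and 139.8 CPM in control, 196, 196 and 264 CPM in lean and 167, 146 and 143 CPM in obese libraries. All lean libraries lay above all others, and the Gabarapl1 difference from obese was 0.52 on the log2 scale (SE 0.132, adjusted p = 0.0147) and from control 0.69 (SE 0.133, adjusted p = 0.00391). The lean over obese call was lost without obese replicate 2 (adjusted p = 0.0579) or obese replicate 3 (0.0518). Without lean replicate 3 the difference was 0.37 (adjusted p = 6.76e-05). In NMuMG, Gabarapl1 was at 46.9, 45.4 and 41.8 CPM in control, 53.2, 53.1 and 58.3 CPM in lean and 44.9, 40.7 and 42.3 CPM in obese libraries, again with lean above all others. There Gabarapl1 in lean exceeded obese by 0.35 (adjusted p = 3e-06) and control by 0.30 (adjusted p = 2.32e-05).

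Wipi1 (ENSMUSG00000041895) binds the lipid PI3P on the forming membrane, and it had opposite calls in the mouse lines. In E0771, Wipi1 was at 75.2, 67.6 and 69.0 CPM in control, 52.7, 53.2 and 50.9 CPM in lean and 67.0, 64.6 and 66.0 CPM in obese libraries. Lean lay below all other libraries, with Wipi1 differing by -0.34 on the log2 scale from obese (SE 0.0511, adjusted p = 4.55e-06) and by -0.45 from control (adjusted p = 6.69e-08). In NMuMG, Wipi1 was at 32.1, 37.2 and 34.8 CPM in control, 40.5, 42.3 and 46.4 CPM in lean and 33.0, 34.2 and 33.5 CPM in obese libraries. Lean lay above all other libraries there, with Wipi1 higher by 0.35 than in obese (adjusted p = 1.27e-05) and by 0.31 than in control (adjusted p = 3.33e-05).

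Ulk1 (ENSMUSG00000029512) and Atg13 (ENSMUSG00000027244) encode the kinase that starts autophagy and its binding partner. In E0771, Ulk1 was at 64.4, 62.6 and 64.9 CPM in control, 55.7, 54.4 and 66.7 CPM in lean and 61.2, 66.2 and 62.1 CPM in obese libraries. Ulk1 passed in none of the 3 contrasts in either mouse line, with lean over obese at -0.10 on the log2 scale in E0771 (adjusted p = 0.164) and 0.02 in NMuMG (adjusted p = 0.767). In E0771 this rests on lean replicate 3, the highest of all 9 libraries. Without it, Ulk1 in lean was below obese by 0.20 (log2 difference -0.20, adjusted p = 0.0018) and below control by 0.22 (log2 difference -0.22, adjusted p = 0.000563). In NMuMG, Ulk1 was at 88.6, 95.9 and 85.8 CPM in control, 86.6, 80.7 and 84.2 CPM in lean and 78.3, 87.0 and 80.6 CPM in obese libraries, with all groups overlapping. Lean over control there (-0.10, adjusted p = 0.0771) passed without control replicate 3 (adjusted p = 0.033) or lean replicate 1 (0.0477), and obese over control without obese replicate 2 (0.039).

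Atg13 in E0771 was at 44.5, 45.2 and 47.3 CPM in control, 40.4, 38.4 and 39.3 CPM in lean and 42.9, 45.9 and 48.1 CPM in obese libraries, with lean below all others. The Atg13 difference was -0.22 on the log2 scale from obese (SE 0.056, adjusted p = 0.00184) and -0.22 from control (adjusted p = 0.00145). In NMuMG, Atg13 was at 32.4, 31.5 and 28.4 CPM in control, 32.0, 35.7 and 34.7 CPM in lean and 27.2, 29.1 and 28.0 CPM in obese libraries. Lean lay above all obese libraries, by 0.27 (adjusted p = 0.000729), and overlapped control (0.15, adjusted p = 0.0416). The lean over control call was lost without control replicate 2 (adjusted p = 0.051), control replicate 3 (0.268, with a difference of 0.10), lean replicate 2 (0.193) or lean replicate 3 (0.0947), with no filter (0.0545) and with DESeq2 (0.0714).

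Atg9b (ENSMUSG00000038295), a form of the lipid-moving membrane protein ATG9, had the largest rise of the members in NMuMG. Atg9b there was at 17.7, 18.7 and 17.8 CPM in control, 42.7, 42.5 and 41.0 CPM in lean and 25.2, 20.6 and 20.8 CPM in obese libraries. The 3 groups were apart: Atg9b in lean exceeded obese by 0.91 on the log2 scale (SE 0.0658, 1.88-fold, adjusted p = 6.78e-13) and control by 1.22 (SE 0.0666, 2.34-fold, adjusted p = 2.54e-16). Obese exceeded control by 0.31 (adjusted p = 0.00586), which was lost without obese replicate 1 (adjusted p = 0.111). In E0771 the gene was scarce, at 2.96, 2.72 and 2.66 CPM in control, 1.68, 1.92 and 1.96 CPM in lean and 2.16, 1.42 and 1.91 CPM in obese libraries, from 36 to 81 counts per library. Atg9b fell in lean E0771 cells against control (-0.59, SE 0.192, adjusted p = 0.0106), while lean over obese was 0.01 (adjusted p = 0.962) and obese over control -0.61 (adjusted p = 0.103).

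Tfeb (ENSMUSG00000023990) encodes a factor that switches on autophagy and lysosome genes. Tfeb fell in lean E0771 cells, where it was at 12.8, 12.9 and 11.4 CPM. Tfeb was at 18.8, 18.6 and 20.8 CPM in control and 17.2, 18.2 and 18.8 CPM in obese E0771 libraries, all above every lean library. The Tfeb difference was -0.55 on the log2 scale from obese (SE 0.0818, adjusted p = 3.59e-06) and -0.66 from control (SE 0.0815, adjusted p = 2.21e-07). In NMuMG, Tfeb was at 16.5, 19.8 and 17.9 CPM in control, 15.9, 16.6 and 16.9 CPM in lean and 14.6, 15.4 and 17.6 CPM in obese libraries, with all groups overlapping. No NMuMG contrast passed for Tfeb (lean over obese 0.04, adjusted p = 0.738; lean over control -0.13, adjusted p = 0.214).

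Tfe3 (ENSMUSG00000000134), its close relative, differed less. In E0771, Tfe3 was at 62.4, 55.8 and 55.7 CPM in control, 63.2, 63.7 and 69.8 CPM in lean and 65.9, 59.3 and 58.3 CPM in obese libraries, with lean above control and overlapping obese. Tfe3 in lean exceeded control by 0.17 on the log2 scale (adjusted p = 0.0192), and lean over obese was 0.10 (adjusted p = 0.178). The call was lost without control replicate 2 (adjusted p = 0.106), control replicate 3 (0.0636) or lean replicate 3 (0.084). In NMuMG, Tfe3 was at 66.0, 73.5 and 73.8 CPM in control, 80.0, 78.2 and 80.1 CPM in lean and 77.3, 77.1 and 75.7 CPM in obese libraries. Tfe3 in lean NMuMG libraries exceeded control by 0.16 (adjusted p = 0.00311, lost without control replicate 1 at 0.0759), and lean over obese was 0.04 (adjusted p = 0.555). Tfeb and Tfe3 had opposite calls in lean over control in E0771, as the plot of member differences shows.

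**Figure D3:**
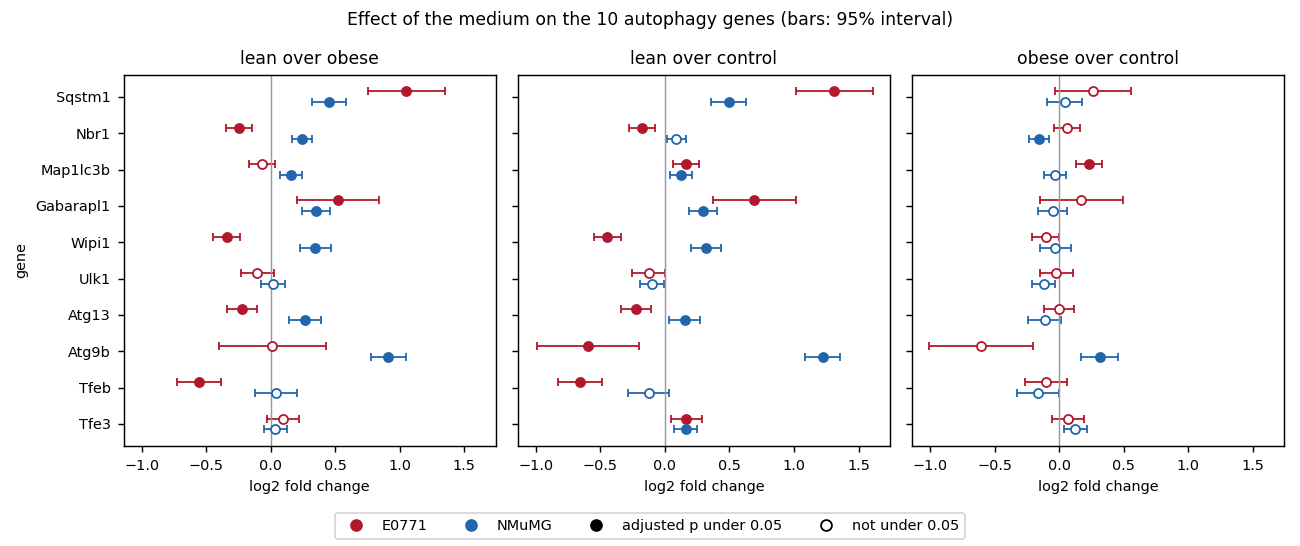
Log2 differences of the 10 mouse members with 95% intervals in E0771 and NMuMG. Panels show lean over obese, lean over control and obese over control, and filled points passed the test. In both lean contrasts Wipi1 and Atg13 lie below 0 in E0771 and above 0 in NMuMG, and Sqstm1 lies above 0 in both lines.

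Obese secretome against control gave few member calls, as it gave few calls over all genes. In E0771, 1 member rose (Map1lc3b) and none fell, and in NMuMG 1 rose (Atg9b) and 1 fell (Nbr1), where 5.01% of all genes passed (2.34% higher, 2.66% lower; in E0771 1.21% and 1.40%). No member was called in both lines, and 0.113% of all genes were called in opposite directions. Obese and control libraries did not overlap for 6 members in E0771, against 21.5% of all genes, and for 3 in NMuMG, against 21.3%.

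Whether the secretome effect differed between the mouse lines was tested as an interaction, E0771 minus NMuMG, in a fit of all 18 mouse libraries. For lean over obese, 7 of the 10 members differed, 1 with the larger value in E0771 and 6 with the larger value in NMuMG, against 34.2% of all genes (18.8% and 15.5%). The difference was 0.62 on the log2 scale for Sqstm1 (SE 0.146, adjusted p = 0.00491), -0.67 for Wipi1 (adjusted p = 6.13e-09) and -0.88 for Atg9b (SE 0.191, adjusted p = 0.000271). It was -0.58 for Tfeb (adjusted p = 0.000121), -0.47 for Nbr1 (adjusted p = 3.75e-08), -0.47 for Atg13 (adjusted p = 1.96e-05) and -0.21 for Map1lc3b (adjusted p = 0.0129). The Map1lc3b call was lost without E0771 lean replicate 1 (adjusted p = 0.0525) or NMuMG obese replicate 2 (0.0527). For Gabarapl1 the difference was 0.19 (95% interval -0.16 to 0.54, adjusted p = 0.426), for Ulk1 -0.11 (adjusted p = 0.349) and for Tfe3 0.08 (adjusted p = 0.49). The Ulk1 difference passed without E0771 lean replicate 3 (adjusted p = 0.0205). For lean over control 6 members differed, 1 with the larger value in E0771 and 5 in NMuMG (34.5% of all genes, 19.4% and 15.1%), and for obese over control 3 did, 2 and 1 (1.69% of all genes, 1.06% and 0.623%). Of the 5 members called in both lines in lean over obese, Sqstm1 and Gabarapl1 had the same direction and Wipi1, Atg13 and Nbr1 opposite ones. Opposite calls were made for 8.20% of the 12433 genes tested in both lines. In lean over control, Wipi1, Atg13 and Atg9b were called in opposite directions, against 7.01% of those genes.

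A wider list of 69 autophagy genes, which includes the members, places them in the pathway. Of its 68 tested genes, 17 rose and 18 fell in E0771 in lean over obese, and 22 rose and 5 fell in NMuMG, with median log2 differences of -0.02 and 0.05. Without the 10 members, 15 rose and 14 fell of 58 in E0771, and 15 rose and 5 fell in NMuMG. For these counts and those by role, the shares of all genes were 25.8% higher and 26.9% lower in E0771 (52.7% called) and 17.6% higher and 17.4% lower in NMuMG (35.0% called). Obese over control gave 6 higher and 1 lower in E0771, the first led by Rragd (0.60, adjusted p = 0.000118), a GTPase that recruits the growth kinase mTORC1 to lysosomes, and 1 higher and 4 lower in NMuMG. Over all genes 1.21% were higher and 1.40% lower in E0771, and 2.34% and 2.66% in NMuMG.

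By role, the initiation genes held 2 that fell of 5 in E0771 and 1 that rose in NMuMG. Ulk2, the relative of Ulk1, had the largest fall of the list in E0771: it was at 37.8, 35.3 and 38.4 CPM in control, 19.1, 18.6 and 15.4 CPM in lean and 33.2, 39.3 and 36.7 CPM in obese libraries. Lean was apart from both, and Ulk2 differed from obese by -1.05 on the log2 scale (SE 0.0785, adjusted p = 1.6e-10), with 0.01 in NMuMG (adjusted p = 0.876). The PI3P effectors held 1 that rose and 1 that fell of 5 in E0771 and 4 that rose in NMuMG, among them Wdr45 (0.42, adjusted p = 4.81e-05). Of 6 genes of ATG9 and lipid transfer, 3 rose in each line. Tmem41b, a lipid scramblase of the endoplasmic reticulum, rose in both (0.44 in E0771, adjusted p = 2.08e-07; 0.23 in NMuMG, adjusted p = 0.000844), and Vmp1, with the same activity, rose in E0771 (0.45, adjusted p = 1.12e-07) with 0.04 in NMuMG (adjusted p = 0.403). The class III PI3K genes held 1 that rose and 1 that fell of 8 in E0771 and 2 that rose in NMuMG.

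The ATG8 genes held 3 that rose and 1 that fell of 5 in E0771 and 4 that rose in NMuMG. Gabarap was the one that fell in E0771 (-0.32, adjusted p = 0.000858), and it rose in NMuMG (0.28, adjusted p = 4e-07), unlike its relative Gabarapl1. Of 11 genes that couple ATG8 proteins to lipid, 2 rose and 2 fell in E0771 and 1 fell in NMuMG. In E0771 the protease gene Atg4d rose (0.56, adjusted p = 6.38e-07) and Atg7, the E1-like enzyme, fell (-0.37, adjusted p = 7.67e-05), while in NMuMG Atg16l2 fell (-0.31, adjusted p = 0.00576). Of 10 cargo receptors, 5 rose and 4 fell in E0771, where 52.7% of all genes were called, and 4 rose and 1 fell in NMuMG, where 35.0% were. Optn, a receptor for mitochondria and bacteria, rose in E0771 (0.33, adjusted p = 0.00374) and fell in NMuMG (-0.32, adjusted p = 5.33e-08). Calcoco1, a receptor for endoplasmic reticulum, went the other way (-0.40, adjusted p = 1e-06, and 0.47, adjusted p = 5.35e-07). The mitochondrial receptor Bnip3 rose in E0771 (0.61, adjusted p = 0.00175) with 0.15 in NMuMG (adjusted p = 0.243).

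Of 11 tested genes of the TFEB family and its control, 5 fell and none rose in E0771, Tfeb among them (26.9% of all genes lower, 25.8% higher), and 2 rose and 3 fell in NMuMG (17.6% of all genes higher, 17.4% lower). The NMuMG falls included Fnip2, a folliculin partner (-0.34, adjusted p = 2.71e-06), and the GTPase gene Rragc (-0.24, adjusted p = 1.61e-05). Mitf, a relative of Tfeb, was called higher in NMuMG (0.46, SE 0.178, adjusted p = 0.0408), but its lean and obese libraries overlapped and 7 of 14 alternatives lost the call (adjusted p of 0.00779 to 0.194 over all). Of 7 fusion genes, 2 rose and 2 fell in E0771 and 2 rose in NMuMG. The fusion protein gene Vamp8 fell in E0771 (-0.46, adjusted p = 1.39e-06) and rose in NMuMG (0.39, adjusted p = 6.17e-09), as did Tecpr1, which tethers autophagosomes to lysosomes (-0.30, adjusted p = 7.21e-05, and 0.33, adjusted p = 2.3e-07). Across the list 13 genes were called in both lines, 5 in the same and 8 in opposite directions, which is 11.8% of the 68 against 8.20% of all genes. Optn was the only one of the 8 that rose in E0771.

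**Figure D4:**
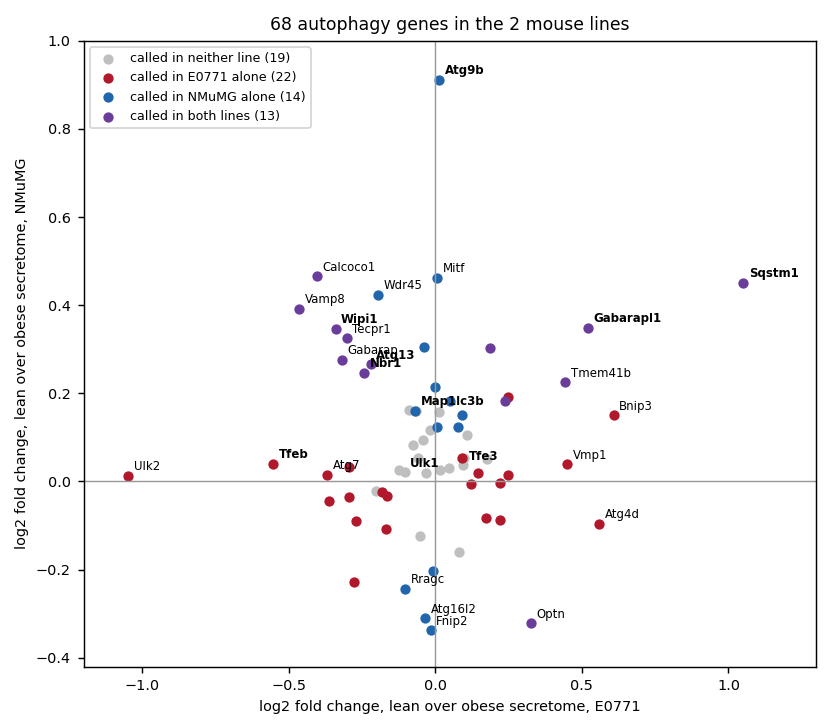
Log2 difference of lean over obese in E0771 (x axis) and in NMuMG (y axis) for the 68 tested genes of the autophagy list, coloured by the line in which each passed. Both lines called 13 genes, E0771 alone 22, NMuMG alone 14 and neither 19; Sqstm1 lies at 1.05 and 0.45, and Ulk2 at -1.05 and 0.01.

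Which genes had levels most like those of Sqstm1 was described over the 18 mouse libraries, after each line's mean was taken out, among 12432 other genes. The 3 highest Pearson correlations of log2 CPM were those of Hmox1, the haem-degrading enzyme (0.98, Spearman 0.98), Hyou1, a chaperone of the endoplasmic reticulum (0.98, Spearman 0.95), and Psma2, a proteasome subunit (0.98, Spearman 0.95). Within E0771 alone they were 0.99 for each, and within NMuMG 0.96, 0.92 and 0.93. The points share media, libraries and total counts, so these values describe the libraries. Hmox1 was at 82.4, 86.2 and 93.6 CPM in control, 1380.5, 1340.2 and 2248 CPM in lean and 252, 112 and 139 CPM in obese E0771 libraries, with lean replicate 3 highest as for Sqstm1. Among the members, Gabarapl1 was closest to Sqstm1 (0.96, rank 63 of all genes), followed by Tfe3 (0.68) and Map1lc3b (0.51). Atg9b was at 0.07, Nbr1 at -0.31, Atg13 at -0.33, Ulk1 at -0.35, Wipi1 at -0.42 and Tfeb at -0.86.

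On GRCm38, exons of 4 members overlap a gene on the other strand: Sqstm1 shares 580 bases with Mrnip, Gabarapl1 570 with 1700101I11Rik, Atg9b 294 with Nos3 and Map1lc3b 58 with Zcchc14. The strand setting of the counting is not given in the sources used here, so reads in these stretches may have been left out or given to either gene. Mrnip was at 6.59 to 11.3 CPM in E0771 and 1.96 to 4.10 CPM in NMuMG. Zcchc14 was at 196 to 240.2 CPM in E0771 and 128 to 141 CPM in NMuMG, beside Map1lc3b at 141 to 179.8 and 98.4 to 122 CPM (levels not scaled by length). Nos3 was at most at 0.83 CPM in E0771 and 1700101I11Rik at most at 0.47 CPM in either mouse line. The Nos3 level in NMuMG is not given here, and what shared reads add to Atg9b in that line was not tested. Processed copies of ATG8 genes can share reads with Map1lc3b and Gabarapl1, so their levels are uncertain to that extent.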

How the data were processed

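The authors deposited raw counts per Ensembl gene ID, whole numbers with no normalization, in a human and a mouse table. Cutadapt 1.16, STAR 2.7.9a, featureCounts 1.6.3 and the build GRCm39 are named for all libraries, human included, per the submitters' processing notes; annotation release and strand setting are not given in the sources used here. Libraries were polyadenylated RNA from a directional kit, per the labels.

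Libraries were grouped by line and medium. Each line was fitted with its 3 media in edgeR 4.0.16 under R 4.3.3 (filterByExpr, TMM, robust quasi-likelihood test), and both mouse lines together for the interaction. P-values were adjusted by Benjamini-Hochberg over all genes of a contrast (14874 in SkBr3, 13813 in E0771, 15014 in NMuMG, 16529 in the interaction), and genes under 0.05 were called. Standard errors come from the log2 difference and F, intervals from t. In lean over obese the median standard error over genes ran from 0.0708 (NMuMG) through 0.0720 (E0771) to 0.0759 (SkBr3). Reads carry no molecular identifiers. Mouse symbols and exon lengths came from GENCODE M21 on GRCm38, which matched 52073 of 56980 IDs (99.68% of counts); human genes other than SQSTM1 were not named, so the list and markers were not run in SkBr3. Replicates differed by more than sampling noise (lowest chi-square over degrees of freedom 1.96).

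The members and the wider list were chosen with earlier results of these data known. The text names all members and, from the wider list, in lean over obese the called genes with the largest changes in each direction and line and those called in opposite directions; Rragd was chosen after its value was seen. Alternatives were DESeq2 1.42.0, its size factors in edgeR, no filter, a replicate block, only the groups compared, and each library left out. The fits were tested on simulated data.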

Additional observations from a re-analysis of the deposited data

Results flagged for a closer look

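The effects below differed between E0771 and NMuMG by edgeR's interaction term (E0771 minus NMuMG, on the log2 scale). Only the members and the genes of the wider list named above for lean over obese were considered. Those list genes were picked from the same libraries for large changes or opposite calls. Their interaction calls are therefore no separate evidence. The lines also differ in their medium, so line and medium cannot be told apart.

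For lean over obese, the difference among the members was 0.62 for Sqstm1, -0.21 for Map1lc3b, -0.67 for Wipi1, -0.88 for Atg9b, -0.47 for Atg13, -0.58 for Tfeb and -0.47 for Nbr1. For lean over control it was 0.85 for Sqstm1 (adjusted p = 0.000488), -0.73 for Wipi1 (5.97e-10), -1.79 for Atg9b (1.23e-10), -0.35 for Atg13 (0.000835), -0.51 for Tfeb (0.000533) and -0.24 for Nbr1 (0.00128). For obese over control it was 0.28 for Map1lc3b (adjusted p = 0.0238), -0.91 for Atg9b (0.0035) and 0.23 for Nbr1 (0.0343). Of 22 alternatives, 7 lost the Map1lc3b call (adjusted p of up to 0.102) and 10 the Nbr1 call (up to 0.116), which are the losses of single libraries of both lines and, for Nbr1, the replicate block.

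Of 58 tested list genes outside the members, 14 were called with the larger lean over obese value in E0771 and 14 in NMuMG. Over all genes the shares were 18.8% and 15.5%. Only the genes named above are given here. Among them, lean over obese was lower in E0771 for Ulk2 (-1.04), Calcoco1 (-0.85), Vamp8 (-0.84), Tecpr1 (-0.61), Wdr45 (-0.60), Gabarap (-0.58) and Atg7 (-0.37). It was higher in E0771 for Atg4d (0.67), Optn (0.67), Bnip3 (0.48), Vmp1 (0.43), Fnip2 (0.34), Atg16l2 (0.29), Tmem41b (0.23) and Rragc (0.16). The Tmem41b difference was lost without NMuMG lean replicate 2 (adjusted p = 0.0611). Those of Bnip3, Atg16l2 and Rragc were near the threshold: leaving out single libraries of either line gave adjusted p of up to 0.0885, 0.128 and 0.119. With no filter the calls of Rragc (0.120) and Atg16l2 (0.0819) were lost, and that of Rragc also with DESeq2 (0.083) and with DESeq2's size factors in edgeR (0.0737).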

How the results depend on the processing

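No direction of a called member turned in any alternative run. All member calls in NMuMG lean over obese (7 of 7) and in the interaction of lean over control (6 of 6) held throughout. In E0771 5 of 6 held in lean over obese and 8 of 9 in lean over control, in NMuMG lean over control 4 of 7, and in the interaction of lean over obese 6 of 7. None of the obese over control calls within a line held (0 of 1 in E0771, 0 of 2 in NMuMG), and 1 of 3 did in its interaction, where Nbr1 and Map1lc3b were lost. The Gabarapl1 interaction of lean over control (0.42, adjusted p = 0.0573) passed with DESeq2 (0.0231) and when any of the E0771 lean replicates was left out (adjusted p of 0.0132 to 0.0282), the difference being 0.26 without replicate 3 and 0.50 without either of the others.

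Counts of called genes or members moved by over 1.5 times in obese over control and in no lean contrast. With each library left out, 5 to 8 members were called in E0771 lean over obese, 8 to 9 in lean over control, and 7 and 5 to 9 in NMuMG. The counts that follow are for obese over control. In SkBr3 172 genes were called, 539 with no filter, 384 with DESeq2 and 849 with only the 2 groups compared. Leaving out each library gave 20 to 655. In E0771 it was 360, with 626 without a filter and 79 to 601 leaving out each library, and the members called were 1, then 2 in the fit of the groups compared alone and 0 to 2 leaving out each library. In NMuMG 384 to 893 genes and 1 to 3 members were called leaving out each library. The interaction had 279 genes, 428 without a filter, 422 with DESeq2 and 149 to 392 leaving out each library, with 1 to 3 members. The cause was not tested. SQSTM1 in SkBr3 ranged over 1.10 to 1.31 in lean over obese, 1.43 to 1.63 in lean over control and 0.25 to 0.40 in obese over control when each library was left out.

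Same-numbered libraries of different media had correlations of their deviations from -0.0452 to 0.0523 in SkBr3, -0.0942 to 0.110 in E0771 and -0.0285 to 0.0250 in NMuMG, and 3 of 12, 3 of 9 and 3 of 9 libraries correlated best with their own number, so the numbers were not taken as pairs. With the replicate block, 6 members were called in E0771 and 7 in NMuMG in lean over obese, SQSTM1 was at 1.18 (adjusted p = 0.00073), and the only member call that changed was the Nbr1 interaction of obese over control (adjusted p = 0.0586).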
